A study of Danio rerio with 8 samples.

Results

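Genes of the microtubule system were followed across the clusters of pnp4a-positive skin cells of zebrafish. They were taken by symbol from the deposited cluster table and comprised 9 alpha tubulin, 5 beta tubulin, 1 gamma tubulin and 1 delta tubulin genes, 5 tubulin cofactors, 7 stathmins, 3 end binding proteins and 4 subunits of the gamma tubulin complex. These were 35 of the 19914 features in the table. Stripe and interstripe skin of untreated adult fish that carried pnp4a:palmmCherry and pnp4a:nlsEos was dissociated separately, and single cells high for both reporters were sorted and sequenced from 4 plates labelled dark (stripe) and 4 plates labelled light (interstripe). Both reporters are driven by regulatory sequence of pnp4a, a purine nucleoside phosphorylase gene of iridophores, so every cell was selected for activity of that sequence, and skin of more than a single fish was combined before sorting. The authors grouped 646 cells into clusters. Cluster c2 held 176 cells and cluster c4 held 82, and the study describes both as having lower levels of iridophore markers. Cluster c5 held 72 cells, by the study's account mostly from stripes, and cluster c3 held 122, mostly from interstripes. Cluster c1 held 194 cells of mixed origin.

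Microtubules are hollow filaments built from dimers of alpha and beta tubulin. Newly made tubulin is folded by a chaperonin and joined into dimers by the tubulin cofactors, stathmins bind free dimers, a complex of gamma tubulin starts new filaments, and end binding proteins ride on their growing tips. In pigment cells of fish, microtubules serve as tracks along which pigment organelles are moved.

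The deposited table listed, per cluster, how many percent of the cells expressed a gene (a corrected count above 0). For the expressing cells it gave the mean level with its SD, on the scale ln(corrected count + 1). Means and SDs that cover each whole cluster were rebuilt here, and a cell lacking the gene entered them as 0. The plates were pooled within clusters, so each cluster is a single value. The SDs describe the spread over cells and not the error between plates or fish, no test between clusters was possible, and the 95% intervals on a percent are exact Clopper-Pearson intervals that cover counting error alone. Clustering by the authors used these same measurements, so the clusters are not independent of the levels compared. Cells had on average 739.6 genes with a value above 0 in c2, 1395 in c4, 815 in c5, 846 in c3 and 789 in c1. The 8 iridophore markers examined, gpnmb and pnp4a among them, had summed means of 12.1 in c2, 15.3 in c4, 19.6 in c5, 20.4 in c3 and 21.2 in c1, and none of them was at 0 in any cluster. By genes per cell the same markers stood at 4.42 in c2, 5.98 in c4, 4.67 in c5, 5.07 in c3 and 4.90 in c1, highest in c4. The lower summed mean of c4 did not hold for each marker. alx4b averaged 0.88 in c4 and 0.75 in c5, and tfec averaged 0.36 in c4 and 0.23 in c5. Near-identical tubulin genes share sequence, and reads that cannot be assigned to one copy may have been lost or split, so single tubulin genes carry this uncertainty.

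One beta tubulin gene was found in most cells of every cluster. tubb4b (ENSDARG00000002344) had a value above 0 in 140 of 176 cells of c2 (79.5%, 72.8 to 85.2%) and in all 82 cells of c4 (100%, 95.6 to 100%). It was found in 61 of 72 cells of c5 (84.7%, 74.3 to 92.1%), 103 of 122 cells of c3 (84.4%, 76.8 to 90.4%) and 164 of 194 cells of c1 (84.5%, 78.7 to 89.3%). The interval of c4 lay above those of the other clusters, which overlapped each other. This was not particular to tubb4b. Between c4 and c1, c3 and c5 pooled, the intervals did not overlap for 71.8% of the 2371 genes compared. No other member exceeded 67.1% in any cluster.

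The level of tubb4b in expressing cells separated the clusters in another way. Its mean over expressing cells was 2.03 in c2 and 2.09 in c4, against 3.65 in c5, 3.64 in c3 and 3.64 in c1. Taken back from the log scale, as the exponential minus 1, these are geometric corrected counts of 6.58 in c2 and 7.12 in c4. They were 37.7 in c5, 37.1 in c3 and 37.2 in c1. Such values are not average counts per expressing cell. The clusters with high iridophore markers were thus nearly equal, and c2 and c4 lay below them. A lower level in expressing cells was not particular to tubb4b. Against c1, c3 and c5 pooled, it was lower in c2 for 79.8% of the 1438 genes compared. In c4 it was lower for 74.5% of 2371 genes. The median difference over these genes was -0.62 in c2 and -1.16 in c4, and tubb4b differed by -1.62 and -1.55. By mean over all cells tubb4b ranked 65 in c2 and 45 in c4, and it was not compared with genes of similar abundance. Over all cells, the means of tubb4b were 1.61 ± 1.51 in c2, 2.09 ± 1.09 in c4, 3.1 ± 1.80 in c5, 3.07 ± 1.98 in c3 and 3.08 ± 1.79 in c1 (SD over cells).

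**Figure D1:**
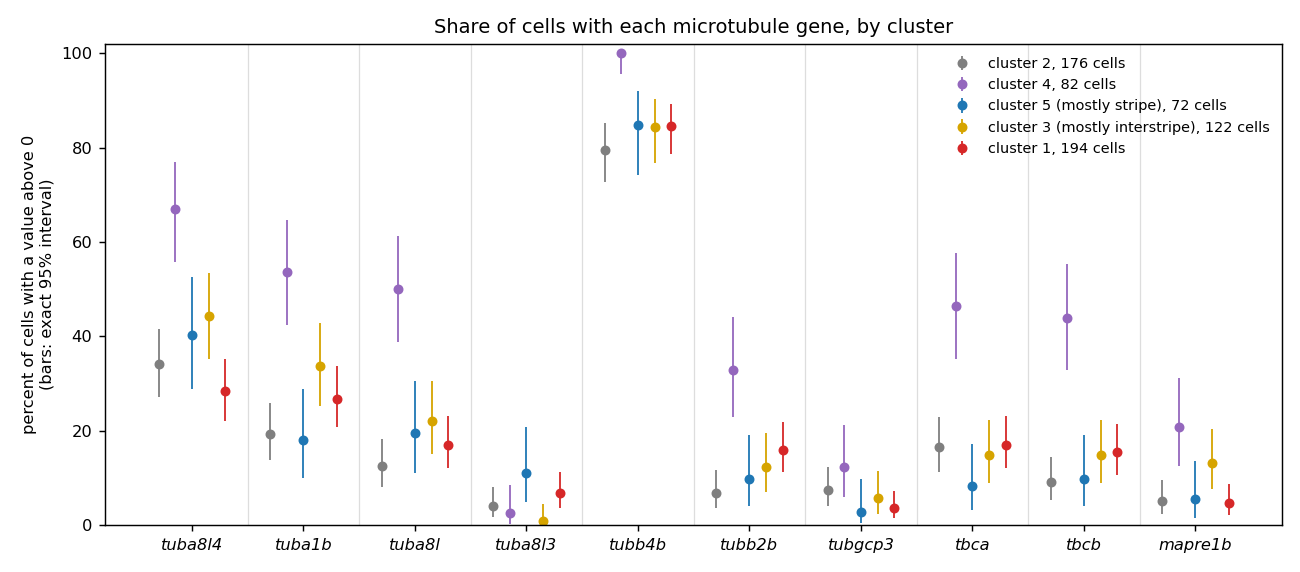
Percent of cells with a value above 0 (y axis) for the 10 microtubule genes that reached 10% of the cells of some cluster (x axis), with exact 95% intervals. Points are clusters c2, c4, c5, c3 and c1 from left to right within each gene. tubb4b stands at 79.5 to 100% in every cluster, and c4 has the highest share for all genes shown except tuba8l3, which reached 10% in c5 alone.

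The main alpha tubulin transcripts came from tuba8l4, tuba1b and tuba8l. tuba8l4 (ENSDARG00000006260) was found in 34.1% of c2 cells (27.1 to 41.6%), 67.1% of c4 cells (55.8 to 77.1%), 40.3% of c5 cells (28.9 to 52.5%), 44.3% of c3 cells (35.3 to 53.5%) and 28.4% of c1 cells (22.1 to 35.2%). The interval of c5 overlapped those of c3 and c1. The interval of c3 began at 35.28% and that of c1 ended at 35.25%. This pair was not compared over all genes, so no difference is read from it. Its means over all cells were 0.49 ± 0.95 in c2, 0.80 ± 0.88 in c4, 0.87 ± 1.27 in c5, 1.02 ± 1.34 in c3 and 0.70 ± 1.24 in c1 (SD over cells).

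tuba1b (ENSDARG00000045367) was found in 19.3% of c2 cells (13.8 to 25.9%), 53.7% of c4 cells (42.3 to 64.7%), 18.1% of c5 cells (9.98 to 28.9%), 33.6% of c3 cells (25.3 to 42.7%) and 26.8% of c1 cells (20.7 to 33.6%). Its means were 0.25 ± 0.68 in c2, 0.58 ± 0.82 in c4, 0.49 ± 1.12 in c5, 0.81 ± 1.30 in c3 and 0.60 ± 1.11 in c1 (SD over cells). The mean was thus highest in c3 and lowest in c2, with c1 between c5 and c3.

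tuba8l (ENSDARG00000042708), which the reference names call tuba5, was found in 12.5% of c2 cells (8.0 to 18.3%), 50.0% of c4 cells (38.7 to 61.3%), 19.4% of c5 cells (11.1 to 30.5%), 22.1% of c3 cells (15.1 to 30.5%) and 17% of c1 cells (12.0 to 23.1%). Its intervals in c5, c3 and c1 overlapped. The level in its expressing cells was 1.14 in c4, against 2.18 in c5, 2.52 in c3 and 2.93 in c1.

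tuba8l3 (ENSDARG00000070155) was rare and most frequent in c5. It was found in 7 of 176 cells of c2 (3.98%, 1.61 to 8.02%), 2 of 82 of c4 (2.44%, 0.297 to 8.53%), 8 of 72 of c5 (11.1%, 4.92 to 20.7%), 1 of 122 of c3 (0.82%, 0.0208 to 4.48%) and 13 of 194 of c1 (6.70%, 3.62 to 11.2%). Among the 10 members that reached 10% of the cells of some cluster, it alone had a smaller share in c4 than in c5. It reached 10% in c5 alone, so the filter set this order. Members under the filter had either order, with tuba1a and tuba1c among those whose share was smaller in c4 than in c5.

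The other alpha tubulin genes, tuba1a, tuba1c, tuba2, tuba4l and tuba8l2, reached at most 7.22% of cells in any cluster. In the RefSeq annotation of the assembly GRCz12tu, tuba1a neighbours tuba1b on chromosome 23, and 1 gene lies between tuba1c and tuba1a. tuba1a was found in 2 of 176 cells of c2, 1 of 82 of c4, 5 of 72 of c5, 5 of 122 of c3 and 14 of 194 of c1. For tuba1c these numbers were 2 in c2, 2 in c4, 5 in c5, 2 in c3 and 5 in c1. The share of tuba1c was 6.94% in c5 (2.29 to 15.5%) and 1.64% in c3 (0.199 to 5.80%), with overlapping intervals.

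A second beta tubulin gene, tubb2b (ENSDARG00000098591), was found in 6.82% of c2 cells (3.57 to 11.6%), 32.9% of c4 cells (22.9 to 44.2%), 9.72% of c5 cells (4.0 to 19.0%), 12.3% of c3 cells (7.05 to 19.5%) and 16.0% of c1 cells (11.1 to 21.9%). Its means over all cells were 0.15 ± 0.66 in c2, 0.39 ± 0.81 in c4, 0.28 ± 0.97 in c5, 0.24 ± 0.78 in c3 and 0.43 ± 1.16 in c1 (SD over cells). tubb1, tubb2 and tubb5 reached at most 5.15% of cells in any cluster. tubb1 was found in 0 of 72 cells of c5 and 0 of 122 cells of c3, which allows shares of up to 4.17% and 2.46%. tubb5 was found in 0 of 82 cells of c4, which allows up to 3.66%. Here and below, such a limit is the share of 3 cells. It is lower than the upper end of the exact interval, for tubb1 4.99% in c5 and 2.98% in c3.

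**Figure D2:**
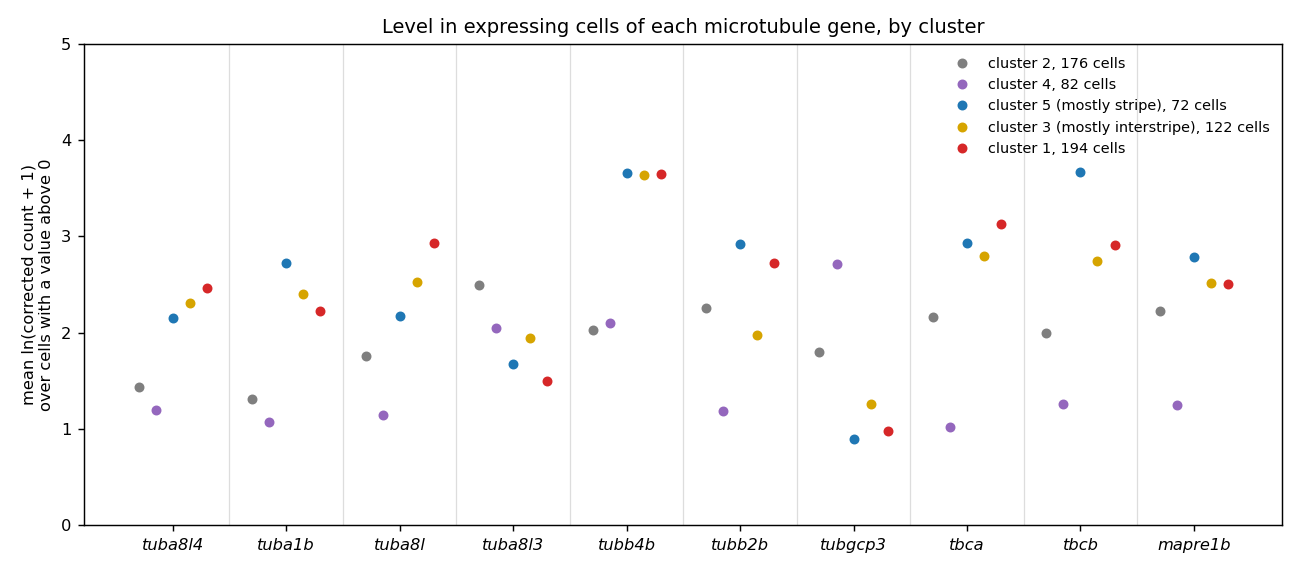
Mean of ln(corrected count + 1) over the cells with a value above 0 (y axis) for the same 10 genes (x axis), with clusters c2, c4, c5, c3 and c1 from left to right within each gene and no error bars. tubb4b lies at 2.03 in c2 and 2.09 in c4, against 3.64 to 3.65 in c5, c3 and c1, while tubgcp3, tuba8l3 and, in c2, tubb2b do not follow that order.

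Of the tubulin cofactors, tbca and tbcb were found in an appreciable share of cells. tbca (ENSDARG00000016754), whose product binds beta tubulin, was found in 16.5% of c2 cells (11.3 to 22.8%), 46.3% of c4 cells (35.3 to 57.7%), 8.33% of c5 cells (3.12 to 17.3%), 14.8% of c3 cells (8.98 to 22.3%) and 17% of c1 cells (12.0 to 23.1%). tbcb (ENSDARG00000068404), whose product binds alpha tubulin, was found in 9.09% of c2 cells (5.29 to 14.3%), 43.9% of c4 cells (33.0 to 55.3%), 9.72% of c5 cells (4.0 to 19.0%), 14.8% of c3 cells (8.98 to 22.3%) and 15.5% of c1 cells (10.7 to 21.3%). Both cofactors thus had smaller shares in c5 than in c3 and c1, within overlapping intervals, and both were found in about as many cells of c4 as each other.

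In expressing cells the order of tbcb was different. Its mean over expressing cells was 2.0 in c2 and 1.25 in c4, against 3.67 in c5, 2.74 in c3 and 2.91 in c1, and the c5 value rests on 7 cells. tbcc, tbcd and tbce, which act with the other cofactors in assembling the dimer, reached at most 6.10% of cells in any cluster. tbcd was found in 0 of 176 cells of c2, which allows a share of up to 1.70%.

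mapre1b (ENSDARG00000002659), which encodes an EB1 protein of growing microtubule ends, was found in 9 of 176 cells of c2 (5.11%, 2.36 to 9.49%), 17 of 82 of c4 (20.7%, 12.6 to 31.1%), 4 of 72 of c5 (5.56%, 1.53 to 13.6%), 16 of 122 of c3 (13.1%, 7.69 to 20.4%) and 9 of 194 of c1 (4.64%, 2.14 to 8.62%). Among c5, c3 and c1 its share was largest in c3, and the interval of c3 overlapped those of c5 and c1. The other end binding protein genes, mapre1a and mapre3b, reached at most 4.10% of cells in any cluster.

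Genes of filament nucleation were rare. tubg1, the gamma tubulin gene, was found in 2.84% of c2 cells, 4.88% of c4 cells, 4.17% of c5 cells (0.868 to 11.7%), 9.02% of c3 cells (4.59 to 15.6%) and 2.58% of c1 cells (0.842 to 5.91%). tubgcp3 (ENSDARG00000029133), a subunit of the gamma tubulin complex, was found in 13 of 176 cells of c2 (7.39%, 3.99 to 12.3%), 10 of 82 of c4 (12.2%, 6.01 to 21.3%), 2 of 72 of c5 (2.78%, 0.338 to 9.68%), 7 of 122 of c3 (5.74%, 2.34 to 11.5%) and 7 of 194 of c1 (3.61%, 1.46 to 7.29%). Unlike tubb4b, its level in expressing cells was 1.80 in c2 and 2.71 in c4, against 0.90 in c5, 1.26 in c3 and 0.98 in c1. tubgcp2, tubgcp4 and tubgcp5 reached at most 6.10% of cells, and tubd1, the delta tubulin gene of centrioles, at most 3.66%.

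No stathmin gene reached 10% of the cells of any cluster. stmn1b had the largest share, in 6 of 72 cells of c5 (8.33%, 3.12 to 17.3%) and in 5 of 122 cells of c3 (4.10%, 1.34 to 9.31%). stmn1a, the other copy of the gene for stathmin itself, was found in 3 of 72 cells of c5 and 0 of 122 cells of c3, which allows a share of up to 2.46%. stmn2a, stmn2b, stmn3, stmn4 and stmn4l, whose mammalian counterparts are mainly neuronal, were found in 0 of 72 cells of c5, which allows up to 4.17% for each, and in at most 6.10% of the cells of c4.

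Counted over the families, a cell had on average 2.44 of the 35 genes in c2, 5.06 in c4, 2.62 in c5, 3.13 in c3 and 2.89 in c1. Most of these were alpha and beta tubulins, at 0.76 and 0.95 genes per cell in c2, 1.87 and 1.39 in c4, 1.04 and 1.00 in c5, 1.11 and 1.03 in c3, and 0.94 and 1.08 in c1. Per 1000 genes detected, the 35 genes made up 3.30 in c2, 3.63 in c4, 3.22 in c5, 3.70 in c3 and 3.67 in c1. Set against all genes detected, c4 thus lay within the range of the other clusters. By family, cofactors made up 0.39 per 1000 genes detected in c2, 0.71 in c4, 0.27 in c5, 0.47 in c3 and 0.53 in c1, and were highest in c4. Beta tubulins made up 1.29 in c2, 1.00 in c4, 1.23 in c5, 1.22 in c3 and 1.37 in c1, and were lowest in c4. Most of the beta sum was tubb4b, found in 79.5% of c2 cells and 100% of c4 cells. A share cannot exceed 100%, and the part of this limit in the beta value of c4 was not tested. Alpha tubulins made up 1.03 in c2, 1.34 in c4, 1.28 in c5, 1.31 in c3 and 1.19 in c1.

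**Figure D3:**
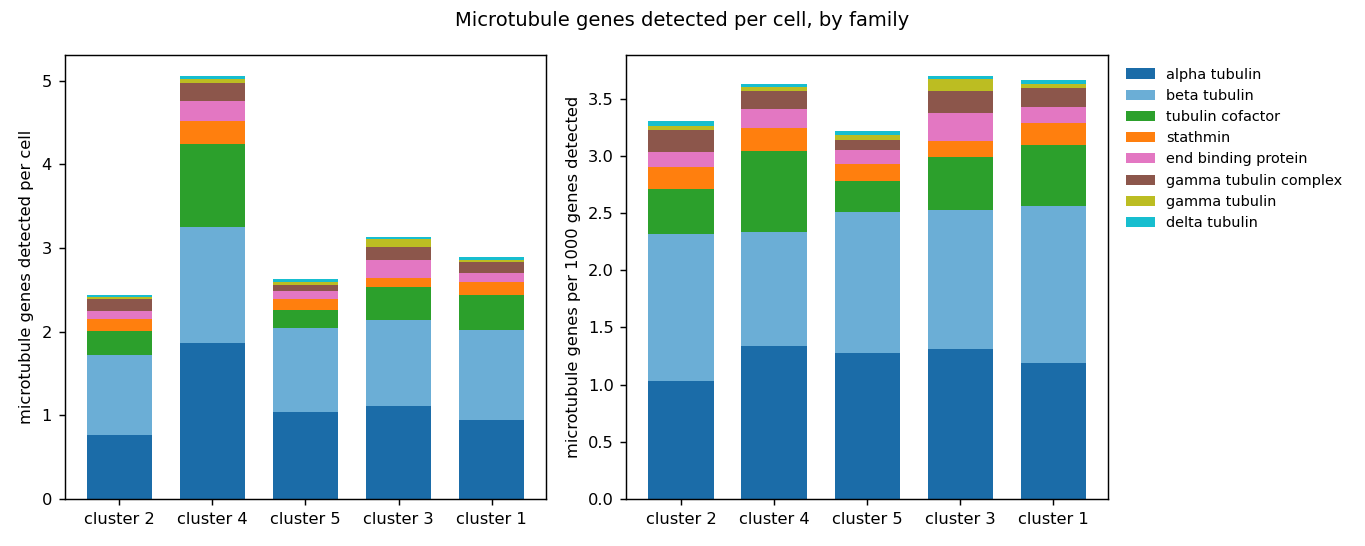
Left, average number of the 35 microtubule genes with a value above 0 per cell, stacked by family, in clusters c2, c4, c5, c3 and c1. Right, the same per 1000 genes detected, where the totals run from 3.22 in c5 to 3.70 in c3 although the left bars run from 2.44 in c2 to 5.06 in c4.

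The study compared the transcripts of stripe and interstripe iridophores, which the comparison of c5 with c3 addresses for these genes. In its text, cytoskeleton pathways, microtubules among them, differed in enrichment between these clusters. That result rests on the authors' own test and gene sets. It is unlike the measure and size of difference used here for 35 genes, so the counts below neither repeat nor contradict it. No microtubule gene differed by 0.5 or more in mean ln(corrected count + 1) over all cells between c5 and c3. Of the 35 genes, 9 reached 10% of the cells in c5 or c3, and 0 of the 9 were higher and 0 lower in c5 by that size, while 4.95% of the 1779 genes past the same filter were higher and 3.65% were lower. tuba8l3 passed the filter through c5 alone, and tubb2b, tbca, tbcb and mapre1b through c3 alone. A mean over all cells cannot go below 0. The c3 means of tuba8l3, tubb2b, tbca, tbcb and mapre1b were under 0.5, so these genes could not have been lower in c5 by that size.

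The differences of the 9 genes, c5 minus c3, ran from -0.32 to 0.17, with a median of -0.14 beside 0.037 over all genes past the filter. At the low end stood tuba1b, with a mean of 0.49 ± 1.12 in c5 and 0.81 ± 1.30 in c3 (difference -0.32), followed by mapre1b, with 0.15 ± 0.67 in c5 and 0.33 ± 0.93 in c3 (difference -0.17), and tbca, with 0.24 ± 0.92 in c5 and 0.41 ± 1.11 in c3 (difference -0.17). At the other end stood tuba8l3, with 0.19 ± 0.59 in c5 and 0.016 ± 0.18 in c3 (difference 0.17). Each of these differences was smaller than the SD over cells of either cluster. That SD describes the spread between cells and not the error of a cluster mean, so it does not tell how reliable a difference is. The mean was above that of c3 in c5 for 3 of the 9 genes, tuba8l3, tubb2b and tubb4b, and for 56.2% of all genes past the filter. Genes that passed the filter through a single cluster entered by a high share there. Neither this count nor the median is therefore a measure of a lean to either cluster. With every gene of at least 1 cell, the median was -0.015. tubb4b, at 3.1 in c5 and 3.07 in c3, differed by 0.024.

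Share of cells and level in expressing cells did not move the same way. The share was larger in c5 for 2 of the 9 genes, tuba8l3 and tubb4b, where 53.5% of all genes past the filter had a larger share in c5. For tuba8l3, tubb2b, tbca, tbcb and mapre1b, which passed the filter through a single cluster, the filter itself set this direction. The count is therefore no measure of a lean to either cluster. The level in expressing cells was lower in c5 for 3 of the 9, where 40.3% of all genes were lower, and the median difference of this level was 0.14, the opposite sign to the median over all cells. For tuba1b the share was 18.1% in c5 and 33.6% in c3, and the level in expressing cells was 2.72 in c5 and 2.40 in c3. The intervals of the share did not overlap for tuba8l3, at 4.92 to 20.7% in c5 and 0.0208 to 4.48% in c3, and 7.25% of all genes past the filter had shares in c5 and c3 with intervals that did not overlap.

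**Figure D4:**
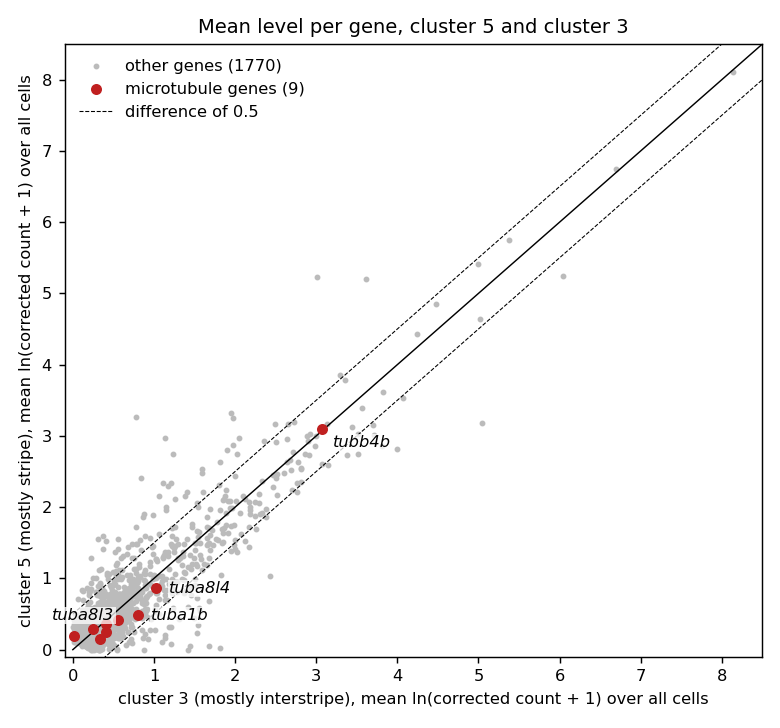
Mean of ln(corrected count + 1) over all cells in c5 (y axis) and in c3 (x axis) for the genes that reached 10% of the cells in c5 or c3. Microtubule genes are red and other genes grey, the solid line marks equal means and the dashed lines a difference of 0.5. The 9 microtubule genes lie between the dashed lines, tubb4b almost on the line of equal means.

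Clusters c2 and c4, by the study's account lower in iridophore markers, were set against c1, c3 and c5 pooled, which held 388 cells. tubb4b, the most abundant of the microtubule genes, had the largest differences in mean over all cells, -1.47 in c2 and -0.99 in c4. Its means were 1.61 ± 1.51 in c2 and 2.09 ± 1.09 in c4, against 3.08 ± 1.85 in the pooled clusters (SD over cells). In c2 it was the only one of 7 genes past the filter that was lower by 0.5 or more, and 0 of the 7 were higher, while 12% of the 1438 genes past the filter were lower and 1.6% were higher. In c4 it was again the only one of 9 that was lower by 0.5, and 0 were higher, while 3.25% of 2371 genes were lower and 3.21% were higher. The pooled means of tubb2b, tbca, tbcb, mapre1b and tubgcp3 were under 0.5, so these genes could not have been lower by that size. In expressing cells, the level of tubb4b differed by -1.62 in c2, the largest drop of the 7 genes. In c4 it differed by -1.55, and tbca (-1.98) and tbcb (-1.70) dropped further.

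In c2 the other genes lay slightly below the pooled clusters. The differences of the 7 genes ran from -1.47 to -0.085, with a median of -0.28 beside -0.18 over all genes past the filter. tuba1b had means of 0.25 ± 0.68 in c2 and 0.64 ± 1.18 in the pooled clusters (difference -0.39), tuba8l4 had 0.49 ± 0.95 in c2 and 0.83 ± 1.28 in the pooled clusters (difference -0.34), and tuba8l had 0.22 ± 0.76 in c2 and 0.50 ± 1.18 in the pooled clusters (difference -0.28). The mean was higher in c2 for 0 of the 7 and for 14.1% of all genes past the filter. The share was larger in c2 for 1 of the 7, tbca, and for 34.2% of all genes. The intervals of the share in c2 and in the pooled clusters overlapped for all 7, while they did not overlap for 15.6% of all genes. tubb2b and tbcb passed the filter through the pooled clusters alone, which set the direction in which their shares differ. The median and the count of means draw on these genes too. The level in expressing cells was lower in c2 for 7 of 7, with a median difference of -0.90 beside -0.62 over all genes, of which 79.8% were lower.

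In c4 most of the genes were found in more cells at a lower level. Cells of c4 also had more genes detected of any kind, 1395 on average against 812 in the pooled clusters, and the part of this in the shares was not tested. The share was larger in c4 for 9 of 9, as it was for 99.5% of all genes past the filter, and the intervals did not overlap for 8 of 9 (all but tubgcp3) and for 71.8% of all genes. The median ratio of the share in c4 to that in the pooled clusters was 2.62 for the 9 genes and 2.41 over all genes. The level in expressing cells was lower in c4 for 8 of 9, with a median difference of -1.35 beside -1.16 over all genes, of which 74.5% were lower. The exception was tubgcp3, with 2.71 in c4 and 1.09 in the pooled clusters. It had means over all cells of 0.33 ± 0.95 in c4 and 0.045 ± 0.26 in the pooled clusters (difference 0.29). tubgcp3 and mapre1b passed the filter through c4 alone, which set the direction in which their shares differ.

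Over all cells of c4, the means of these alpha tubulins and cofactors lay near those of the pooled clusters. tuba8l4 had means of 0.80 in c4 and 0.83 in the pooled clusters, and tuba1b had 0.58 in c4 and 0.64 in the pooled clusters. tuba8l averaged 0.57 in c4 and 0.50 in the pooled clusters, tbca 0.47 in c4 and 0.44 in the pooled clusters, and tbcb 0.55 in c4 and 0.42 in the pooled clusters. The mean was higher in c4 for 6 of the 9 genes and for 66.9% of all genes past the filter. tubgcp3 and mapre1b, which passed the filter through c4 alone, are among the 6.

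**Figure D5:**
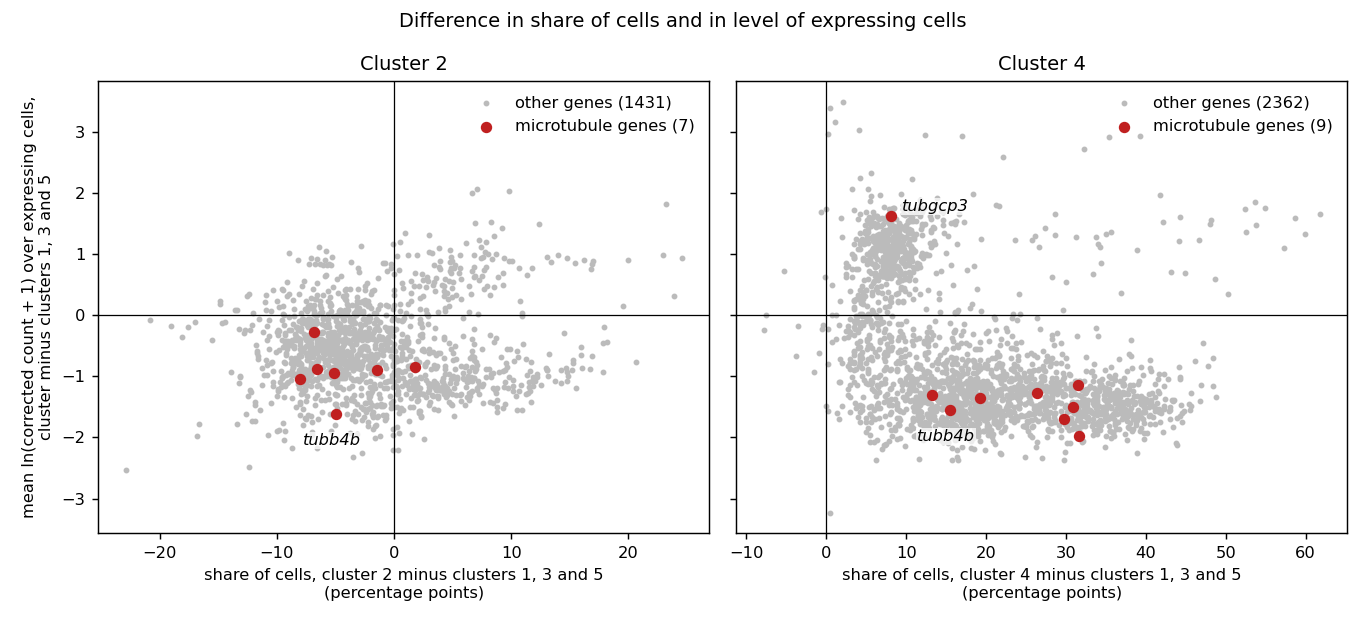
Difference in the percent of cells with the gene (x axis, percentage points) and difference in mean ln(corrected count + 1) over expressing cells (y axis), for c2 (left) and c4 (right) minus clusters c1, c3 and c5 pooled. Microtubule genes are red and other genes grey. In c4 the 9 microtubule genes all lie right of 0, and 8 of the 9 below 0, as most of the grey points do.

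Across all clusters, the mean over all cells was highest in c4 for 3 of the 10 genes that reached 10% of the cells of some cluster, against 42.4% of the 2582 genes past that filter. It was highest in c3 for 3 of them, in c5 for 2, in c1 for 2 and in c2 for 0, against 17.5%, 29.2%, 9.72% and 1.16% of all genes. Differences between clusters accounted for 13.4% of the variance of tubb4b over all cells. For the other 9 genes this share ran from 0.74% in tbca to 3.95% in tubgcp3, and the median over the 10 was 1.64%, beside 1.89% over all 2582 genes.

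Other genes of the pathway were examined as lists. Of 15 measured genes of the folding chaperonin and prefoldin, 12 passed the filter for c5 and c3, with 0 higher and 0 lower by 0.5 and a median difference of -0.043. The largest differences were those of pfdn5 (mean 0.32 in c5, 0.08 in c3) and pfdn4 (mean 0.36 in c5, 0.58 in c3), both subunits of prefoldin, which hands tubulin to the chaperonin. Of the chaperonin subunits themselves, cct6a averaged 0.28 in c5 and 0.48 in c3, and cct5 averaged 0.24 in c5 and 0.43 in c3. Of 38 measured proteins of the microtubule lattice and plus end, 2 passed the filter and neither differed by 0.5. macf1a, a spectraplakin that links microtubules to actin, averaged 1.37 in c5 and 1.36 in c3, and map7d1b averaged 0.18 in c5 and 0.37 in c3. In these lists too, a gene with a c3 mean under 0.5 could not be lower in c5 by 0.5. pfdn5 passed the filter through c5 alone, and cct6a, cct5 and map7d1b through c3 alone. The filter thus set the direction in which their shares differ.

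A single gene passed the filter among 9 measured genes of microtubule severing and end removal. katna1 (ENSDARG00000021827), the catalytic subunit of the severing enzyme katanin, was found in 3.98% of c2 cells, 24.4% of c4 cells, 19.4% of c5 cells (11.1 to 30.5%), 3.28% of c3 cells (0.900 to 8.18%) and 12.9% of c1 cells. Its means were 0.55 ± 1.23 in c5 and 0.11 ± 0.68 in c3 (difference 0.44), under the size counted here. katna1 passed the filter through c5 alone, which set the direction in which its share differs. Its intervals in c5 and c3 did not overlap, as for 7.25% of all genes past the filter. Of 23 measured enzymes and binding proteins of tubulin modification, tppp3 alone passed the filter (mean 0.33 in c5, 0.07 in c3), also through c5 alone. Of 12 measured nucleation partners and 6 measured cofactor partners, 0 passed it.

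Markers of other cells and of dividing cells were counted in the same clusters. The 15 measured proliferation markers, mki67 and top2a among them, summed to 0.33 genes per cell in c2, 0.59 in c4, 0.26 in c5, 0.42 in c3 and 0.35 in c1, and 4 of the 15 were at 0 in c5 and 1 in c3. The 14 neuron and Schwann markers summed to 0.65 genes per cell in c2, 1.51 in c4, 0.89 in c5, 0.69 in c3 and 0.63 in c1, and 3 of the 14 were at 0 in c5 and 0 in c3. The 9 fibroblast markers summed to 0.57 genes per cell in c2, 1.07 in c4, 0.36 in c5, 0.51 in c3 and 0.37 in c1. For the 9 xanthophore markers these sums were 0.73 in c2, 1.06 in c4, 0.38 in c5, 0.48 in c3 and 0.45 in c1, for the 8 measured melanophore markers 0.81 in c2, 1.09 in c4, 0.81 in c5, 0.78 in c3 and 0.79 in c1, and for the 10 keratinocyte markers 0.43 in c2, 0.62 in c4, 0.26 in c5, 0.24 in c3 and 0.34 in c1. The 8 measured immune markers summed to 0.30 in c2, 0.48 in c4, 0.36 in c5, 0.24 in c3 and 0.22 in c1. Most of the melanophore sum came from trpm1b, found in 68.2% of cells of c2, 93.9% of c4, 72.2% of c5, 60.7% of c3 and 69.6% of c1. The other melanophore markers reached at most 9.02% of cells (dct in c3). In the neuron and Schwann list, sox10 had the largest share in each cluster, from 20.5% in c3 to 57.3% in c4, and foxd3 was found in 26.8% of c4 cells. The study describes a sox10 transgene as labelling neural crest derivatives broadly, so this sum is not specific to neurons and Schwann cells. Each of these sums was highest in c4, whose cells had 1395 genes of any kind detected against 812 in c1, c3 and c5 pooled. The sums were not set against that number, so they do not show that c4 is richer in such cells. A marker is also more easily at 0 in the 72 cells of c5 than in the 122 of c3. The part of all these markers in the differences of the microtubule genes was not tested.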

How the data were processed

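Single cells were sequenced from 8 plates. Per the study's methods, the authors trimmed reads, aligned them with STAR to GRCz11 and counted unique molecular identifiers, kept cells within limits on features and counts, removed mitochondrial features and spike-ins, and normalized and clustered with SCTransform and Seurat. The submitters' processing notes also name bcl2fastq 2.20. The deposited table pools the plates. For each cluster it holds the count of its cells and, by gene, the percent expressing it. It also holds the mean and SD of the level in expressing cells, as the natural log of 1 plus the corrected count. The lowest deposited mean over expressing cells was 0.693, the natural log of a corrected count of 1 plus 1. Percents matched whole numbers of cells within 0.005 percentage points. A further table, the authors' own comparison of c5 with c3 (fold changes, p-values and fractions of cells), was not used. Depth per cell and per plate was not analysed here.

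Means and SDs over all cells were rebuilt with Python 3.11.15, numpy 2.4.6, pandas 2.3.3 and scipy 1.17.1, and the rebuilding was tested on simulated data. The table was filtered to genes in at least 10% of the cells of either side, and differences of at least 0.5 on the natural log scale were counted. With no plates in the table there was no test between clusters. Where no cell had a gene, the share of 3 cells is printed as its upper limit, which lies below the upper end of the exact interval. All 35 members were found in the reference gene names by identifier. Every member in at least 10% of the cells of any cluster is described with values, and of each pathway list up to 4 genes with the largest difference between c5 and c3. Members and lists were chosen with earlier results of these data known. Alternatives were another filter, the level in expressing cells, and other sizes of difference. Of the marker lists, only 2 of the erythrocyte genes were measured, at 0.045, 0.061, 0, 0.041 and 0.031 genes per cell in c2, c4, c5, c3 and c1.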

Additional observations from a re-analysis of the deposited data

How the results depend on the processing

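Among 42 recomputed values, 26 were unchanged or within 1.5 times the reported one and 16 did not, and the cause was not tested. With every gene of at least 1 cell, the median difference was -0.015 for c5 minus c3, -0.015 for c2 and 0.020 for c4 against the pooled clusters, and 15 of 35 genes had their highest mean in c4 (44.1% of all genes). With the level in expressing cells, the median was 0.14 for c5 minus c3, -0.90 for c2 and -1.35 for c4. By that level, 2 genes, tubb2b and tbcb, were higher in c5 by 0.5 (21.2% of all genes), 6 were lower in c2 (57.2%), 8 were lower and 1 was higher in c4 (68.6% and 22%), and 1 gene of 10 was highest in c4 (21.6%). With a difference of 0.25, 1 gene was lower in c5 than in c3 (tuba1b, 11.9% of all genes), 4 were lower in c2 (33.7%) and 1 was higher in c4 (tubgcp3, 15.1%). With a difference of 1, 0 were lower in c4 (1.1%). At a filter of 25% of cells, all results stayed within 1.5 times. No plate could be left out, since the deposited table pools them. No paired analysis was possible because the cluster columns carry no replicate number. A limit on a share of 0 bounds the cells with a value above 0, not the cells that express the gene.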
